A study of Mus musculus with 15 samples.

Results

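Acute promyelocytic leukaemia is a myeloid leukaemia in which promyelocytes fail to mature, and the samples are leukaemic spleens of the mouse strain Bl/6 Taconic. The Ly6k-high tumours among them were chosen by their measured values of Ly6k, a surface protein gene. A tumour was called Ly6k-high when the log2 value of Ly6k, the median over the 5 probesets whose only annotated symbol is Ly6k, was over 9. This held for 4 of the 15 tumours in the series, tumor_9504, tumor_9509, tumor_36 and tumor_9508, and the 11 others lay under 9. The labels give all 15 the same strain, tissue and disease and no genotype, treatment, sex or age, so the split comes from the measured Ly6k value and is not a group of the study. Nothing in the labels tells if each tumour is from its own animal, which alleles or transplanted leukaemia they share, or how many leukaemic cells each spleen held. The p-values therefore measure the spread between these 15 arrays, which may be partly technical.

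Ly6k belongs to the Ly6 and uPAR family, small proteins with a cysteine-rich LU domain that are mostly held on the outer cell membrane by a glycosylphosphatidylinositol (GPI) anchor. In the mouse it is best known from the testis, where it associates with another family member, Tex101, and its human counterpart is described as a cancer/testis antigen. Several relatives that lie near Ly6k on mouse chromosome 15, such as Ly6a (Sca-1), Ly6c1, Ly6c2 and Ly6g, are everyday surface markers of blood cells. The question put to the data was which other genes differed between the tumours with and without a high Ly6k signal.

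Whole-transcript exon arrays were used, with 1 intensity per probeset and array. The median deposited intensity per array lay between 107.6 and 128.5, lowest in tumor_9509 (Ly6k-high) and next lowest, at 108.1, in tumor_9514 (one of the others). The number of arrays, 4 against 11, limits the precision. As a check of the labelled tissue and disease, the promyelocyte enzyme gene Mpo was at 12.42 or above in the Ly6k-high tumours, and the B cell receptor gene Cd79a, a marker of normal spleen, at 7.67 to 9.55 (7.27 to 9.04 in the others). In bulk spleen RNA, fewer cells of a type and less RNA per cell cannot be told apart.

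Ly6k itself was either bright or near the limit, with no tumour between. Its gene value was 11.18 in tumor_9504, 11.01 in tumor_9509, 10.72 in tumor_36 and 11.47 in tumor_9508, a mean of 11.09 ± 0.31 (SD, n = 4). In the others it ran from 6.44 through a median of 6.80 to 7.65, a mean of 6.91 ± 0.40 (SD, n = 11). The tumour just inside the threshold, tumor_36 at 10.72, and the one just outside it, tumor_26 at 7.65, were 3.07 log2 units apart. These values chose the sets and are given without a test. The difference in means was 4.18, or 18.2-fold, and on the 3 probesets that carried the signal it was 17.0, 24.2 and 31.4-fold. The others lay close to the brightness limit of 6.41. That limit is a percentile of the gene means and not a measured background. It therefore cannot show whether these folds are lower bounds, which was not tested.

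The bright signal came from 3 of the 5 probesets. Probeset 4891745 read 11.87 to 12.44 in the Ly6k-high tumours and 5.76 to 8.40 in the others. Probeset 4816474 read 11.15 to 11.88 against 5.74 to 7.65. Probeset 4600603 read 10.72 to 11.47 against 6.38 to 7.96. On each of these, every Ly6k-high tumour stood above every other tumour. Probeset 4813166 read 6.82 to 7.46 against 6.36 to 7.26, and probeset 5333089 read 6.41 to 7.12 against 6.30 to 6.90, so on both the ranges overlapped. The same 4 tumours were bright on all 3 probesets. A median of 5 probesets over the threshold needs at least 3 of them over it. The rule itself therefore made 3 probesets bright in each chosen tumour, and this is not separate evidence. That they were the same 3 in all 4 tumours was not fixed by the rule.

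**Figure D1:**
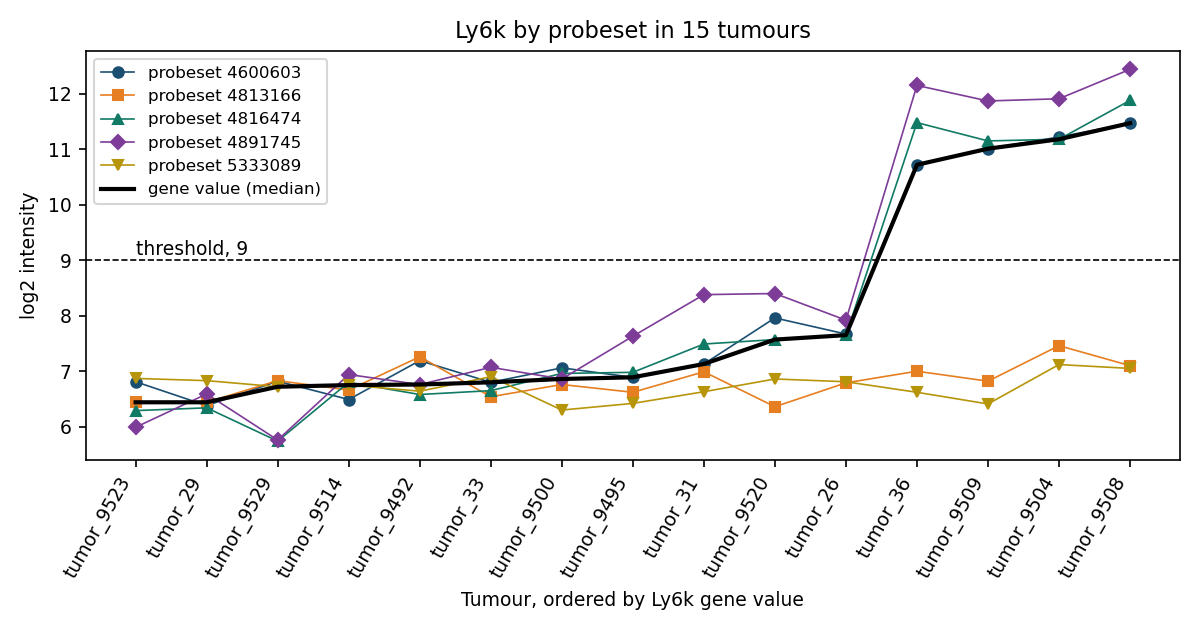
Log2 intensity of the 5 Ly6k probesets (coloured symbols) and of the gene value, their median (black line), in 15 tumours ordered by the gene value; the dashed line is the threshold of 9. On 3 probesets the 4 tumours at the right stand at 10.72 or above, while the remaining 2 probesets stay between 6.30 and 7.46 in all tumours.

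Below the threshold Ly6k was not flat either. On probeset 4891745, tumor_9520 stood at 8.40, tumor_31 at 8.38, tumor_26 at 7.92 and tumor_9495 at 7.63, and the remaining tumours at 7.07 or below. Across the 11 others the 3 bright probesets varied together, with pairwise r between 0.65 and 0.95. Their r with the 2 remaining probesets was between -0.12 and 0.10. These correlations describe 11 arrays on which all probesets share each tumour's RNA and hybridisation.

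No probeset of another gene separated the same tumours to a similar degree. Of 229581 probesets on the array, 86 (0.0375%) read higher in all 4 Ly6k-high tumours than in all 11 others and 159 (0.0693%) read lower. The 3 Ly6k probesets were among the former, with gaps between the sets of 2.76 or more. Outside Ly6k, the widest gap was 0.40 upward, on probeset 5330618 of the cytokine receptor gene Il31ra, and 0.47 downward, on probeset 5168450 of Ect2, a gene of cell division. Both were picked after their values were seen.

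At the gene level no difference passed the test. Among 9776 genes above the brightness limit, Ly6k left out, 0 were called higher (0%) and 0 lower (0%) at an adjusted p under 0.05 with limma, and the smallest adjusted p was 0.78. At an unadjusted p under 0.05 there were 572 genes (5.85%), 58 higher (0.593%) and 514 lower (5.26%). This split depends on scaling. After quantile normalization the counts were 191 higher and 206 lower, and the median difference over all genes, -0.09 as deposited, was 0.00. An exact permutation test over the 1365 ways to choose 4 of 15 tumours, whose smallest possible p is 7.3e-04, gave 563 genes at an unadjusted p under 0.05 and 0 after adjustment. The median SE of a gene's difference was 0.17. A missed threshold does not show that a gene was equal in both sets, so intervals are given below for the genes closest to Ly6k in place or kind.

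No tested gene differed by more than 2 log2 units in either direction, against 4.18 for Ly6k. Differences over 1 were seen in 11 genes and under -1 in 10. The largest was that of Trgv3, a T cell receptor gamma variable segment read by 1 probeset, at 2.0 ± 0.80 (SE). Its values in the Ly6k-high tumours were 11.66 in tumor_9508, 9.39 in tumor_36, 7.09 in tumor_9504 and 5.31 in tumor_9509, against 4.81 to 7.63 in the others. Only 2 of the 4 Ly6k-high tumours were thus above all others, and 1 was below the median of the others.

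**Figure D2:**
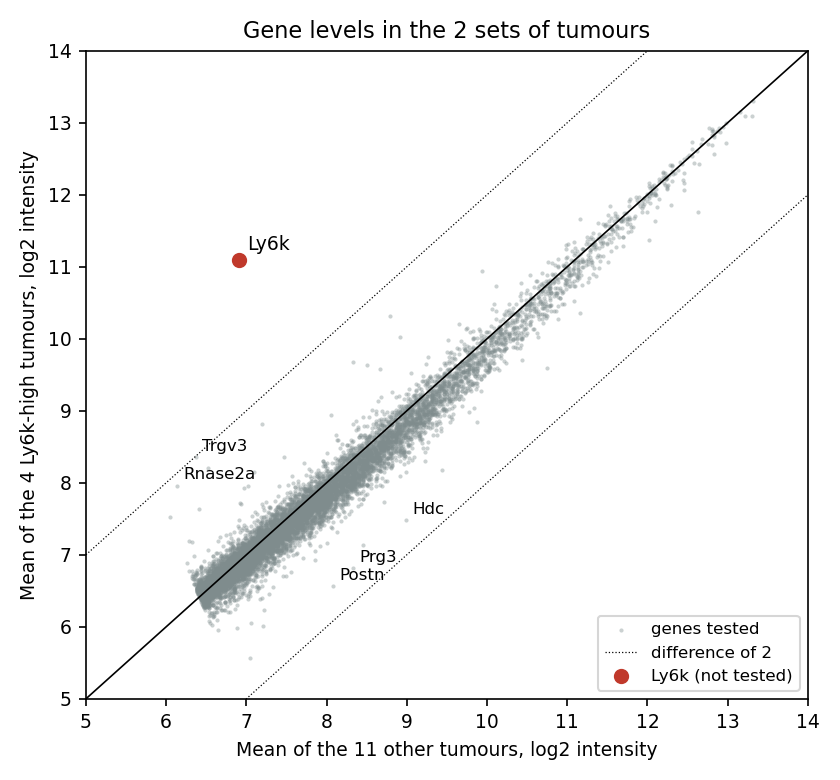
Mean log2 intensity of each of 9776 tested genes (grey) in the 4 Ly6k-high tumours against the mean in the 11 others; the solid line is equality and the dotted lines mark a difference of 2. Ly6k (red, not tested) lies at 11.09 against 6.91, outside the dotted lines, and no tested gene does.

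The genomic neighbours of Ly6k did not show its gap between the sets. Of the 10 protein-coding genes on each side of Ly6k on chromosome 15, 16 were measured and 7 passed the brightness limit. None of the 7 was called, and their median difference was -0.01, beside -0.09 for all tested genes. After quantile normalization the medians were 0.14 and 0.00. Of the dimmer neighbours, which were not tested, Lynx1 differed most, by 0.35. It read 6.14 to 6.57 in the Ly6k-high tumours and 5.35 to 6.51 in the others. Ly6d, a lymphoid and epithelial surface marker on one side, read 7.80, 8.80, 7.45 and 7.61 in tumor_9504, tumor_9509, tumor_36 and tumor_9508 and 7.40 to 8.42 in the others. Its difference was 0.01, with a 95% interval from -0.47 to 0.49. Gml and Gml2, the nearest measured genes on the other side, are GPI-anchored relatives and were dim. Gml read 5.59 to 6.52 in the Ly6k-high tumours against a mean of 5.91 ± 0.53 (SD, n = 11), and Gml2 3.72 to 4.56 against 4.08 ± 0.34.

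Ly6e, a broadly expressed family member and the brightest neighbour, read 12.42, 11.36, 12.21 and 12.47 in the same order of tumours and 11.82 to 12.72 in the others. Its difference was -0.13 (95% interval -0.57 to 0.31). Ly6a, the stem cell antigen Sca-1, differed by -0.11 (-1.02 to 0.80) and was brightest, at 9.11, in tumor_31, one of the others. Ly6c1 differed by -0.01 (-0.43 to 0.40) and Ly6m by 0.16 (-0.12 to 0.45). Ly6c2, a monocyte marker, read 7.39, 7.48, 7.77 and 7.82 in the Ly6k-high tumours and 6.77 to 7.61 in the others. Its difference of 0.39 ± 0.15 (SE) had an unadjusted p of 0.018 and an adjusted p of 0.78, and 2 of the 4 stood above all others. Signs of these small differences changed between alternatives for Ly6d, Ly6e, Ly6a and Ly6c1. Ly6a, Ly6c1, Ly6c2, Ly6i and Ly6f are near-identical in parts, so probes may read relatives as well.

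**Figure D3:**
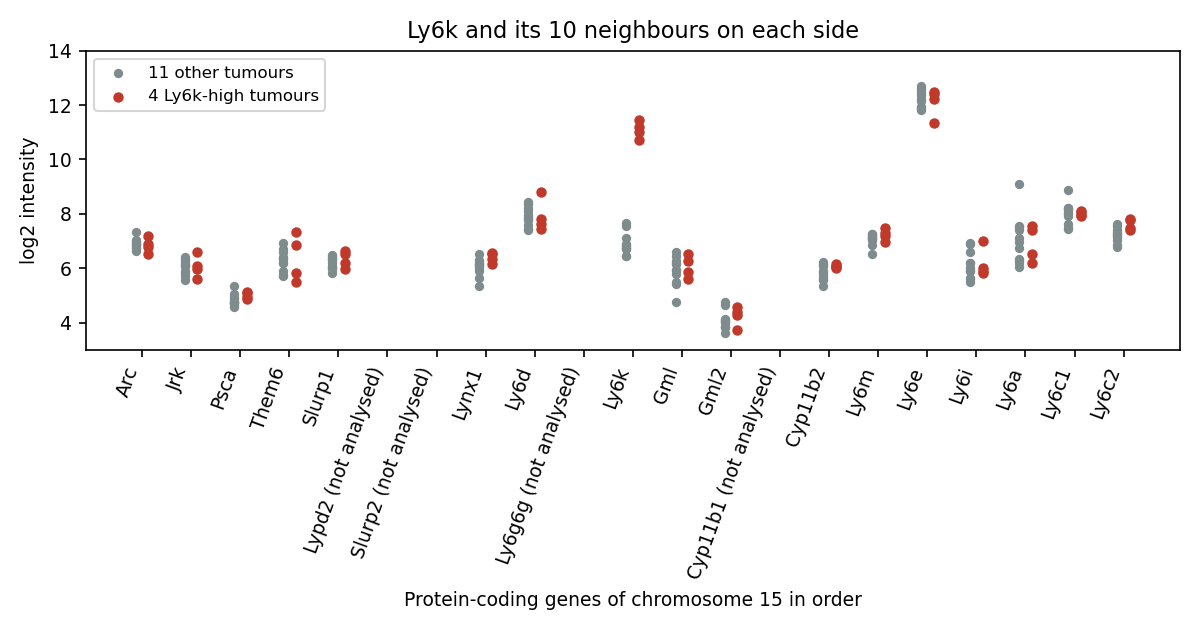
Log2 intensity of Ly6k and of the measured genes among its 10 neighbours on each side, in gene order along chromosome 15 (grey, 11 other tumours; red, 4 Ly6k-high tumours). The sets stand apart at Ly6k and overlap at every measured neighbour.

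Chromosome 15 as a whole was not higher in the Ly6k-high tumours. The median difference of its 421 tested genes was -0.13, beside -0.09 for all tested genes. Relative to each tumour's median over all genes, chromosome 15 stood at 0.02 in tumor_9504, -0.12 in tumor_9509, -0.14 in tumor_36 and 0.02 in tumor_9508, and between -0.11 and 0.14 in the others. Of the 4, tumor_9509 and tumor_36 thus lay just below all others and the remaining ones within their range.

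Other members of the Ly6 and uPAR family, wherever they lie, gave no call. Of 40 members besides Ly6k, 32 were measured and 16 tested, with a median difference of 0.01. Of the 16, 1 member, Ly6c2, was higher at an unadjusted limma p under 0.05. Over all tested genes that share was 0.593% higher and 5.85% in either direction, and 1 gene is too few to set against it. Plaur, the urokinase receptor of myeloid cells, differed by -0.28 (95% interval -0.85 to 0.30). Cd177, a neutrophil surface protein, differed by -0.30 (-0.90 to 0.31). Gpihbp1, which holds lipoprotein lipase on capillaries, differed by 0.00 (-0.29 to 0.30). Tex101, the testis partner of Ly6k, was dim in both sets, at 5.35 to 5.77 in the Ly6k-high tumours and 4.92 to 5.90 in the others. The dim Ly6g5c read 5.98, 6.24, 5.85 and 6.04 in the Ly6k-high tumours against a mean of 5.64 ± 0.20 (SD, n = 11), and was not tested. The germ cell and cancer-testis list had 27 measured genes, of which 6 were bright enough to test, with a median difference of -0.03 and 0 calls. Xlr, an X-linked gene family member of that list, read 10.47, 8.48, 10.10 and 9.49 against a median of 9.49 in the others.

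Genes that build the GPI anchor, which a Ly6 protein needs to reach the membrane, were also without a call. Of 26 measured, 23 were tested, 6 with a positive and 17 with a negative difference and a median of -0.10, close to the 69.9% negative and median of -0.09 over all tested genes. Pign, which adds ethanolamine phosphate to the anchor, was lower in all 4 Ly6k-high tumours (7.70, 7.72, 7.82 and 7.79) than in every other tumour (7.90 to 8.99). Its difference was -0.50 ± 0.17 (SE), with an exact permutation p of 0.0161 and a limma adjusted p of 0.78. Dpm1, a subunit of the mannose donor synthase, differed by -0.47 ± 0.16 (adjusted p = 0.78).

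The genes with the smallest p-values showed how far the rest of the array followed the split. Since none passed, 10 per direction with at least 3 probesets were taken by p-value, and each had an adjusted p of 0.78. Upward, Stx8, a vesicle fusion syntaxin, read 8.72, 8.37, 7.85 and 8.20 in tumor_9504, tumor_9509, tumor_36 and tumor_9508 and 7.50 to 7.98 in the others, a difference of 0.57 ± 0.14 (SE). That gene value turns on 1 middle probeset, 5035008 (8.29 against 7.74). Only 2 of its 13 probesets were higher on average in the Ly6k-high tumours, and with the mean over probesets the difference was -0.20. Map1lc3a, an autophagosome protein, read 7.41, 7.54, 7.27 and 7.37 against 6.44 to 7.35. Sardh, a mitochondrial sarcosine dehydrogenase, read 7.0, 6.61, 6.63 and 6.67 against 6.14 to 6.61, with 20 of 24 probesets higher. Inppl1, the inositol phosphatase SHIP2, had 28 of 32 probesets higher and a difference of 0.41 ± 0.13.

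The upward difference with the largest size among these 10 was that of Ccn3, a secreted matricellular protein, at 1.48 ± 0.47. It read 8.80 in tumor_36, 7.85 in tumor_9508 and 7.63 in tumor_9504 but 5.85 in tumor_9509, against a median of 5.86 and a highest value of 8.21 in the others. Serpinf1, the secreted factor PEDF, followed at 0.91 ± 0.32, with 8.13 in tumor_36 and 6.36 in tumor_9509 and up to 7.88 among the others. Alyref2, Hdgfl1, Flywch2 and the ligand gene Wnt3a differed by 0.33 to 0.49, and their sets overlapped.

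Downward, Eif5a, a translation factor, read 10.20, 10.43, 9.83 and 10.40 in the Ly6k-high tumours and 10.50 to 10.86 in the others, a difference of -0.49 ± 0.11 (SE), and all 4 were below all 11. Acss1, a mitochondrial acetyl-CoA synthetase, read 6.27, 6.23, 6.07 and 6.05 against 6.31 to 6.86. Nat8l, which makes N-acetylaspartate, read 6.27, 6.47, 6.44 and 5.73 against 6.49 to 7.10. These 3 genes, with Pign, the linker histone H1f2 and the sialyltransferase gene St3gal4, were the 6 of 9776 (0.0614%) in which all 4 stood below all 11; 0 stood above (0%). The gaps were at most 0.09, against 3.07 for Ly6k. For any gene, 1 of the 1365 ways to choose 4 of 15 tumours picks the 4 lowest. The median log2 gene value was 6.659 in tumor_9509, against 6.69 to 6.856 in the 11 others. Whether gaps this small remain after arrays are brought to the same scale was not tested. In the Ly6k-high tumours the means of Acss1 (6.15) and Nat8l (6.23) lay under the brightness limit. Both genes passed it on their mean over all tumours. Of the probesets, 5 of 15 in Acss1, 3 of 9 in Eif5a and 1 of 40 in Pign read higher on average in the Ly6k-high tumours. In Nat8l, H1f2 and St3gal4 none did.

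Spred2, an inhibitor of Ras signalling to MAP kinase, had the largest downward difference of the 10, -1.32 ± 0.32. It read 6.00 in tumor_9509, 7.01 in tumor_36, 7.35 in tumor_9508 and 8.16 in tumor_9504, against 7.30 to 8.98, so the sets overlapped. Raly and Mbnl3, both RNA-binding proteins, differed by -0.70 ± 0.17 and -0.49 ± 0.13. Gabpb1, a partner of the ETS factor GABPA, differed by -0.66 ± 0.16, Tcf20, a transcriptional coregulator, by -0.70 ± 0.19, and Lgals9, galectin-9, by -0.67 ± 0.18. In each of these 5 genes and in Gar1, a small nucleolar RNP protein (-0.55 ± 0.15), 3 of the 4 Ly6k-high tumours were below all others.

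**Figure D4:**
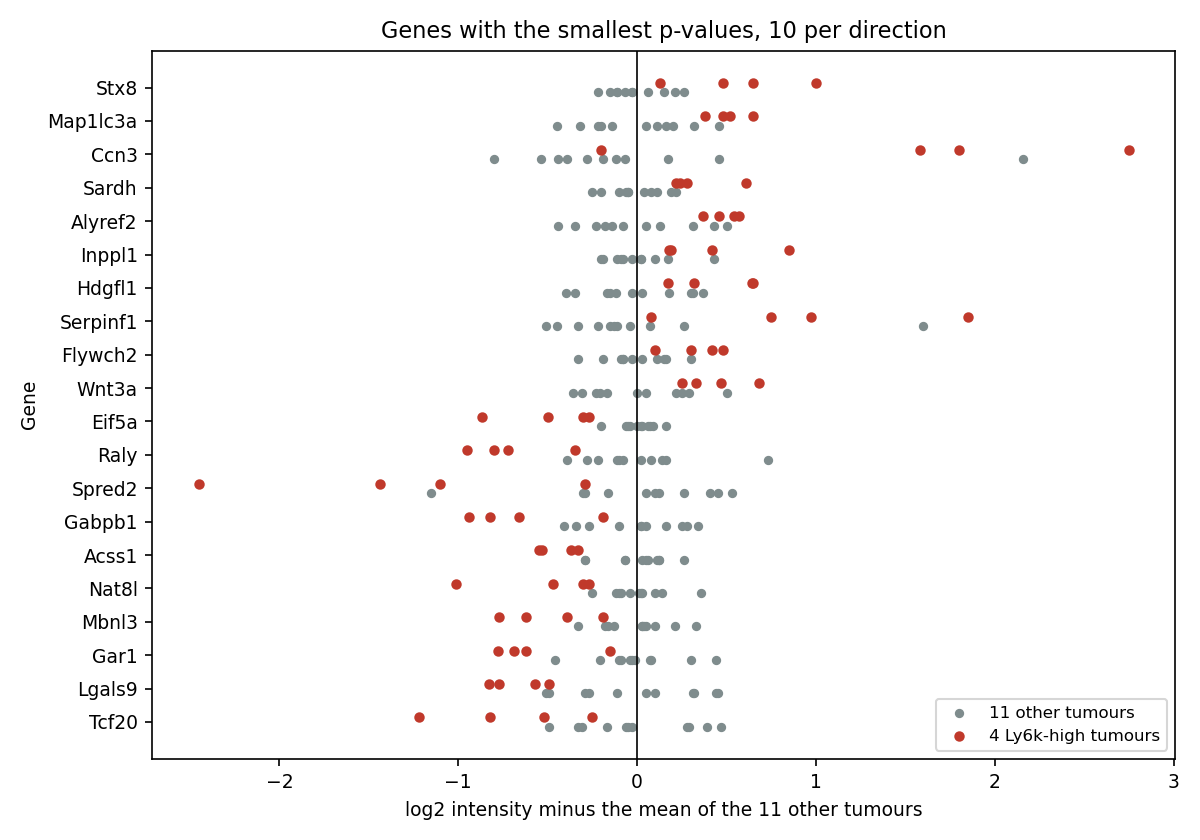
Log2 intensity minus the mean of the 11 other tumours for the 10 higher and 10 lower genes with the smallest p-values among those with at least 3 probesets, with each tumour as a point (red, Ly6k-high; grey, others). Eif5a, Acss1 and Nat8l are the 3 in which the red points lie wholly apart from the grey ones.

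Across all 15 tumours the genes most like Ly6k were Stx8 (r = 0.79), Map1lc3a (0.76), Sardh (0.75), Inppl1 (0.69) and Crebl2 (0.68). The most opposed were Eif4a1 (-0.79), Eif5a (-0.79), Acss1 (-0.77), Lactb2 (-0.77) and Mtmr4 (-0.76). These are Pearson correlations over 15 arrays, given as a description, and the gap in Ly6k between the sets weighs heavily in them.

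Gene lists for myeloid maturation overlapped between the sets. Of 15 tested secondary and tertiary granule genes, 13 had a negative difference, beside 69.9% of all tested genes, with a median of -0.30 and 0 calls. An unadjusted p under 0.05 was reached by 1 of the 15, beside 5.26% of all tested genes in that direction. Ltf, lactoferrin, read 8.36, 11.29, 11.04 and 7.67 in tumor_9504, tumor_9509, tumor_36 and tumor_9508 and 9.71 to 12.24 in the others, so 2 of the 4 were below and 2 within that range. Over 15 genes of mature neutrophils the median was -0.23, and -0.55 without tumor_9509 and tumor_9514. The G-CSF receptor gene Csf3r differed by -0.57 ± 0.28 (SE). The primary granule list had a median of -0.10 over 8 genes, with Mpo at -0.26 (95% interval -0.57 to 0.05). The monocyte list had a median of 0.07 over 15 genes, 11 of them positive and 4 negative, beside 69.9% negative over all tested genes. Its median was 0.14 after quantile normalization. The stem and progenitor list had a median of 0.04 over 11 genes, 7 of them positive and 4 negative. In that list Sox4 differed by 0.27 ± 0.14 and Myb, a progenitor factor, by -0.35 ± 0.21.

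The eosinophil, basophil and mast cell list had a median of -0.37 over 7 genes, 6 of them negative, beside 69.9% of all tested genes. Its median deviation was -0.50 in tumor_9504, -0.01 in tumor_9509, -1.48 in tumor_36 and 0.30 in tumor_9508, against -1.01 to 1.49 in the others, so the sets overlapped. Hdc, which makes histamine, read 7.69, 6.82, 7.11 and 8.31 in the Ly6k-high tumours and 7.45 to 10.49 in the others. Its difference was -1.51 ± 0.44 (SE; unadjusted p = 0.00338, adjusted p = 0.78), and 2 of the 4 lay below all others. Prg3, an eosinophil granule protein, differed by -1.51 ± 0.90.

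Growth genes lay mostly lower, with no call. In the S phase list 16 of 17 genes had a negative difference, beside 69.9% of all tested genes, and 6 of 17 an unadjusted p under 0.05, beside 5.26% of all genes in that direction. The median was -0.31, and -0.19 after quantile normalization. Uhrf1, a maintenance methylation cofactor, differed by -0.52 ± 0.15 (SE) and read 7.76 to 8.32 against 8.28 to 9.04. Pcna, the replication clamp, differed by -0.30 ± 0.11. In the G2 and mitosis list 17 of 18 were negative, 3 of 18 at that p, with a median of -0.22 (-0.09 after quantile normalization). The proliferation antigen gene Mki67, chosen after its values were seen, was the member with a positive difference, at 10.04 to 10.90 in the Ly6k-high tumours and a mean of 10.43 ± 0.30 (SD, n = 11) in the others. The Myc and ribosome biogenesis list had a median of -0.35 over 17 genes, 4 of them at that p, and -0.17 without tumor_9509 and tumor_9514. Median deviations of the S phase genes ran from -0.55 to 0.06 in the Ly6k-high tumours and from -0.40 to 0.44 in the others.

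Markers of other spleen cells gave 0 calls in any list. The median difference was 0.01 over 7 B cell genes, -0.03 over 12 T cell genes, 0.00 over 5 NK cell genes, -0.08 over 5 erythroid genes and -0.16 over 9 megakaryocyte and platelet genes. It was -0.25 over 9 red pulp macrophage genes, -0.09 over 7 dendritic cell genes and 0.01 over 9 genes of endothelium and stroma. The spread of single markers within the Ly6k-high tumours differed. Thy1, a T cell and stem cell surface protein, ran from 7.70 to 10.92, against 6.93 to 10.52 in the others. The endothelial receptor gene Eng ran only from 6.79 to 7.21, against 6.90 to 7.32 in the others. For Eng, 3 of the 4 Ly6k-high tumours were below all others, with a difference of -0.14 (95% interval -0.36 to 0.08). Gzma, granzyme A, read 7.18, 7.80, 8.72 and 8.92 against 5.36 to 8.58, with a median of 7.11, in the others (limma adjusted p = 0.78). The sets thus overlapped, and of the 5 NK cell genes 2 had a positive and 3 a negative difference. The remaining lists had medians of -0.20 (unfolded protein response, 16 genes), -0.13 (hypoxia and glycolysis, 18), -0.11 (immediate early, 13), -0.09 (interferon response, 3), -0.04 (JAK-STAT targets, 14) and -0.13 (myeloid leukaemia genes, 24). In the last, Pml differed by -0.42 ± 0.15 and Etv6 by -0.59 ± 0.29, both with an adjusted p of 0.78.

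**Figure D5:**
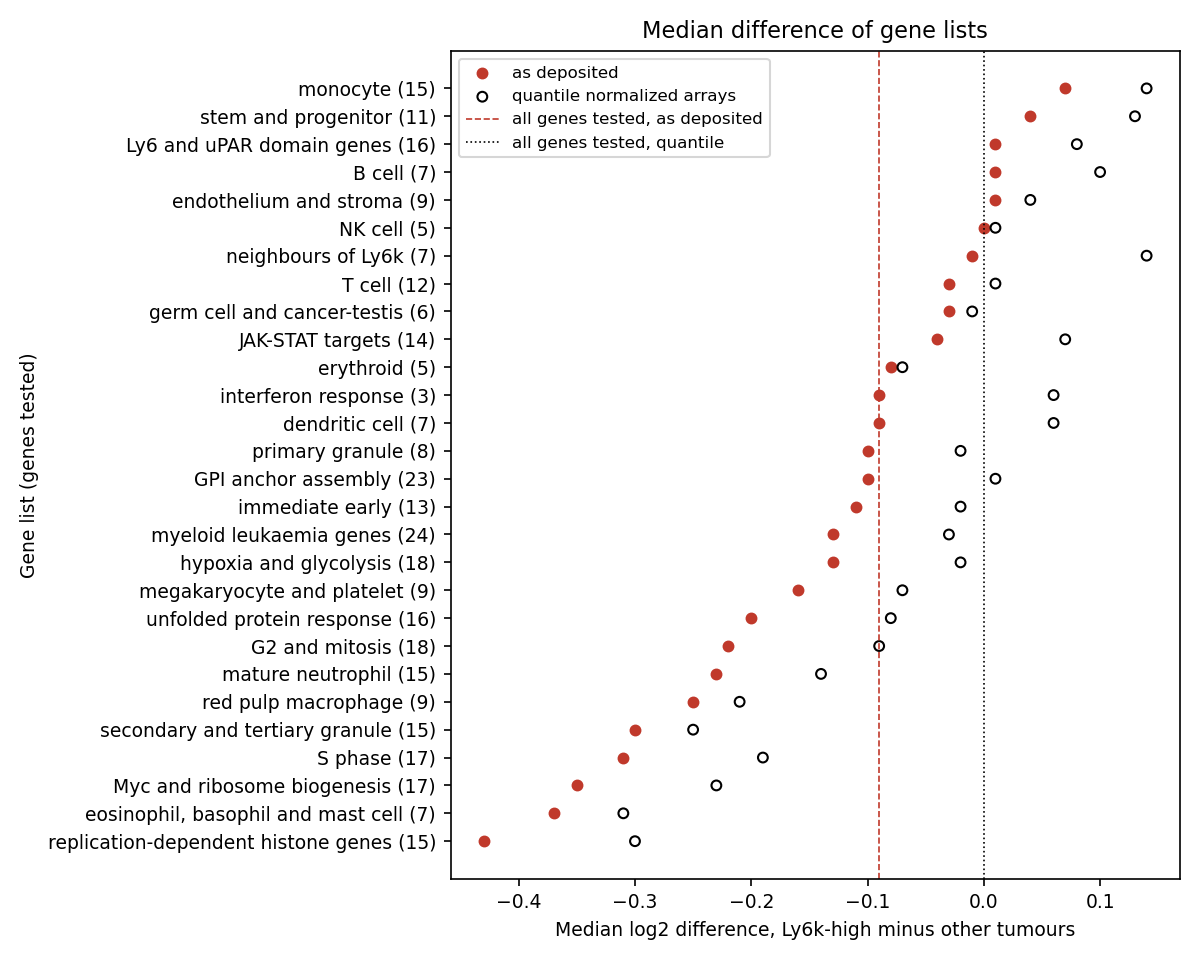
Median log2 difference (Ly6k-high minus other tumours) of the tested members of each gene list, as deposited (red) and after quantile normalization (open circles), with the number of genes tested in parentheses. The lines mark the median over all tested genes, -0.09 and 0.00; the lists lie between -0.43, for replication-dependent histone genes (a list added after the data were seen), and 0.14.

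By their correlations, the 4 Ly6k-high tumours were no more alike than other pairs of tumours. Over the tested genes, centred on their 15-tumour means, the 6 pairs of Ly6k-high tumours correlated at -0.24 to 0.04, with a median of -0.10. The 44 pairs of a Ly6k-high tumour with another had a median of -0.11, and the 55 pairs among the others -0.06. The nearest array of each was one of the others: tumor_9520 for tumor_9504 (0.36), tumor_9514 for tumor_9509 (0.63), tumor_9495 for tumor_36 (0.10) and tumor_9520 for tumor_9508 (0.19). The others outnumber the Ly6k-high tumours, 11 against 4, which makes a nearest array among them likely in any case. Other genes with large differences between tumours did not divide them in the same way. Postn, periostin, read 10.43 in tumor_9509 and 5.04 to 5.53 in the other Ly6k-high tumours, against 4.32 to 10.83. Kdm6a, a histone demethylase gene, read 6.92 to 7.17 in the Ly6k-high tumours, within the 4.94 to 8.22 of the others. Its lowest values, 4.94 to 5.42 in tumor_9500, tumor_26, tumor_9495 and tumor_9520, were all among the others. Flt3, a receptor kinase gene below the brightness limit on average, read 8.07 in tumor_9504, 6.24 in tumor_9509, 5.97 in tumor_36 and 6.20 in tumor_9508. In the 11 others Flt3 read 5.68 to 6.79. Postn, Kdm6a and Flt3, like Trgv3 and Cd79a, were chosen after their values were seen.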

How the data were processed

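Total RNA of 15 spleen tumours was amplified as whole-transcript cDNA and biotin labelled, per the labels' protocols, and read on mouse exon arrays from Affymetrix. The authors deposited 1 linear intensity per probeset and array (2.38 to 19380.5), made with RMA on build mm9, per the submitters' processing notes, which name no version. Intensities were log2 transformed. Of 229581 probesets, 208397 had 1 symbol in the platform annotation, 3965 several and 17219 none. Gene values use only those with 1. The GRCm38.p6 RefSeq table held 14132 of the 16299 symbols, gave current names for 2105 more and did not match 62. That table gave names, chromosomes and gene order only. A gene value is the median over its probesets, and genes with a mean over the 15 tumours above the 40th percentile (6.41) were tested. No 2 arrays held the same values.

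Ly6k-high and other tumours were compared with limma 3.58.1 (lmFit, eBayes) in R 4.3.3, Ly6k left out, with Benjamini-Hochberg adjustment over 9776 genes. Intervals are 95% intervals of that fit. Lists (26) are described by counts and medians, with no set test. The split, the members and the lists were chosen with earlier results of these data known. A list of histone genes was added after seeing the data. Named were, with at least 3 probesets, the 10 genes per direction with the largest difference among those passing, or the smallest p where fewer than 10 passed; 2 per list by p; the neighbours and family of Ly6k; and 5 per direction by r with Ly6k. The fit was tested on simulated data. Alternatives were the mean over probesets, brighter probesets, other filters, centred or quantile normalized arrays, a robust trended fit, exact permutation, 2-digit or 4-digit tumour number, Ly6k as a continuous level, and tumours left out. Python 3.11.15, numpy 2.4.6, pandas 2.3.3, scipy 1.17.1 and matplotlib 3.10.9 were used.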

Additional observations from a re-analysis of the deposited data

Results flagged for a closer look

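Among the 4 Ly6k-high tumours, a single tumour stood apart from the other 3 in 3 genes of 112 checked. In these the gap over the range was above Dixon's 95% critical value, which chance passes in about 1 in 20 groups. The 3 of 112 are no more than that rate, and the ratio does not measure how large a gap is in log2 units. Postn read 10.43 in tumor_9509 and 5.04 to 5.53 in the other 3 (0.909 of the range). Sardh read 7.0 in tumor_9504 and 6.61 to 6.67 in the other 3 (0.854). Gp9, a platelet glycoprotein gene, read 6.85 in tumor_9508 and at most 7.01 in the other 3 (0.952).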

How the results depend on the processing

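The same 4 tumours exceeded 9 for Ly6k with the mean over probesets, with centred arrays and with quantile normalized arrays. Calls at an adjusted p under 0.05 were 0 in both directions under 26 of the 27 alternatives, and leaving out single tumours gave 0 to 0 throughout. The exception was the comparison without tumor_9509 and tumor_9514, the arrays that stand apart, in which 1 gene was called lower, the histone gene H2bc21 (-0.88, adjusted p = 0.04); the cause was not tested. Unadjusted counts moved more. Without tumor_9514 there were 1373 genes at an unadjusted p under 0.05 and without tumor_9509 there were 367, against 572, with ranges over single tumours left out of 45 to 119 higher and 248 to 1286 lower. Counts of higher genes were 245 with no filter on dim genes (16295 genes tested), 20 with the 60th percentile filter (6517 genes), 94 with centred arrays, 38 with 4-digit tumour numbers alone and 126 without tumor_9509 and tumor_9514, against 58. With tumour number as a block 500 genes reached that p. Of 92 tested named genes, 17 changed sign under some alternative, Stx8 among them. No paired analysis was possible because the labels put all tumours in 1 group. Dim genes may sit near background, which was not measured, and this limits what their values show.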

Other observations

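Replication-dependent histone genes, a list formed after some of them were seen among the smallest p-values and therefore not tested as a list, had mostly negative differences, and none passed adjustment. Of 20 measured, 15 were bright enough to test, 14 had a negative difference (69.9% over all tested genes) and 8 had an unadjusted p under 0.05 in that direction (5.26% over all), with a median of -0.43 (-0.30 after quantile normalization) beside -0.09 (0.00) for all genes. The list's median deviation was -0.34 in tumor_9504, 0.12 in tumor_9509, -0.18 in tumor_36 and -0.79 in tumor_9508, against -0.11 to 0.45 in the others, so tumor_9509 lay within their range and tumor_9508 lowest. H1f5, a linker histone read by 1 probeset, had the smallest p of all genes. It read 9.31, 8.26, 9.14 and 8.67 in tumor_9504, tumor_9509, tumor_36 and tumor_9508 and 9.13 to 10.48 in the others, a difference of -1.02 ± 0.22 (SE; unadjusted p = 2.4e-04, adjusted p = 0.78 with limma). H1f2 read 8.68, 8.66, 8.87 and 8.49 against 8.96 to 9.94, and the core histone gene H2ac6 11.39, 11.77, 11.13 and 11.19, 3 of them below all others. H2ac12 (-0.12, 95% interval -0.38 to 0.14) and H4c12 (-0.17, -0.67 to 0.34), both read by 1 probeset, differed less. Histone genes are near-identical in parts, so probes may read relatives as well.

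Some genes with large differences were uneven among the Ly6k-high tumours. Rnase2a, a ribonuclease of the eosinophil family, read 10.44 in tumor_36, 8.77 in tumor_9508, 8.39 in tumor_9504 and 4.24 in tumor_9509, against 4.45 to 7.99 in the others. Its difference was 1.82 ± 0.82 (SE; adjusted p = 0.78 with limma), and 3.06 without tumor_9509, where it had the smallest p of all genes and the smallest adjusted p was 0.55. Tfec, a transcription factor of myeloid cells, read 9.57, 8.47, 8.21 and 6.60 in tumor_9508, tumor_36, tumor_9504 and tumor_9509 and 4.99 to 9.83, with a median of 6.00, in the others. Ppic, a cyclophilin gene, read 10.52 in tumor_36 and 6.04 to 7.79 in the other Ly6k-high tumours, which lay within the 5.33 to 8.76 of the others.

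Among 21184 probesets with no single gene symbol, 6 read higher and 10 lower in all 4 Ly6k-high tumours than in all 11 others, with gaps of at most 0.15. Over all 229581 probesets the counts were 86 higher (0.0375%) and 159 lower (0.0693%), so these probesets did not stand out.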
